A study of Homo sapiens with 4 samples.

Results

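The p21-activated kinases PAK1 to PAK6, together with the small GTPases RAC1, RAC2, RAC3 and CDC42 that bind them, were followed in K562 myeloid leukemia cells overexpressing RUNX1::ERG. These are 10 genes, 6 kinases and 4 GTPases, of the 25702 genes counted. PAK6 was selected on its measured rise in this same contrast, so its values are given as a description without a test. The 9 others were chosen as its family and its binding partners, and were found in the count data by their NCBI gene numbers. K562 is a long-established human line, derived from a chronic myeloid leukemia and carrying erythroid features. The control group, with the genotype label control, received the empty LeGO-iG2 vector, and the second group received LeGO-iG2 carrying RUNX1::ERG. Both groups therefore shared the vector, which also produces green fluorescent protein, and both were labelled as having had no treatment. RUNX1::ERG is a fusion that keeps the Runt DNA-binding domain of RUNX1 and the Ets DNA-binding domain of ERG. Poly(A)-enriched RNA from 2 biological replicates of each group was profiled by whole transcriptome sequencing (WTS). The plasmid was delivered by nucleofection into a single cell line, the labels give no time after transfection (the methods state only a general one for assays in these cells), and selection of transfected cells for RNA is not described. Each value is thus an average over all cells in the culture, and fewer expressing cells cannot be told apart from less RNA per cell.

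PAKs are serine/threonine kinases that relay signals from RAC and CDC42 to the actin cytoskeleton, cell adhesion and survival. The group I enzymes PAK1, PAK2 and PAK3 are held inactive by an autoinhibitory segment that is released by GTP-loaded RAC or CDC42, whereas the group II enzymes PAK4, PAK5 and PAK6 are regulated differently and bind CDC42 in particular. A well-known output is the phosphorylation of LIM kinases, which in turn phosphorylate and inactivate the actin-severing protein cofilin. PAK6 was first described as a partner of the androgen receptor. In blood cells, PAK2 and the GTPases RAC1, RAC2 and CDC42 are the best known members, and RAC2 is largely restricted to hematopoietic cells.

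Between 59695387 and 82352144 reads were counted per library. Where a gene has 0 counts, up to 3 remain possible, equal to 0.0503 reads per 1e6 counted (CPM) at the lowest depth and 0.0364 at the highest, a limit for counting error only. Between 66.7% and 68.9% of the counts from 1 to 10 were even, so fragments may have been counted by both mates and this limit may be too low. The transfected fusion was visible in its own parts. With the empty vector ERG had 4 counts per library, and with RUNX1::ERG it had 80443 in replicate 1 and 27218 in replicate 2, so replicate 1 carried 2.52 times as much normalized ERG signal as replicate 2. RUNX1 had 4736 and 3453 counts with the empty vector and 66232 and 28769 with RUNX1::ERG. Of 14 erythroid markers of K562, all passed the filter on low counts. Their summed normalized level was 12370 to 13059 with the empty vector and 13570 to 14669 with RUNX1::ERG, with HBE1 as the largest part. Called higher were 2 of the 14 (14.3%, against 3.64% of all genes tested). They were EPOR (normalized level 41.6 and 41.6 against 89.1 and 62.8, edgeR adjusted p = 0.030) and AHSP (15.9 and 15.4 against 33.2 and 27.6, edgeR adjusted p = 0.018). HBZ lay lower in both RUNX1::ERG libraries (966 and 1100 against 753 and 615) and was not called (edgeR adjusted p = 0.05003). The lymphoid and monocytic markers summed to 45.0 to 48.9 and 49.7 to 49.9, respectively, a sum that joined opposite moves. CD3D, its largest part, lay lower in both RUNX1::ERG libraries (32.5 and 34.7 against 20.5 and 23.6, edgeR adjusted p = 0.090). CD3G lay higher in both (1.73 and 2.06 against 4.22 and 3.99, edgeR adjusted p = 0.064), and neither was called. Of the 7 lymphoid and monocytic markers tested, 2 were called higher, against 3.64% of all genes tested. They were the monocytic markers CD14 (11 and 30 counts against 325 and 143, edgeR adjusted p = 0.0058) and LYZ (420 and 698 against 1523 and 1345, edgeR adjusted p = 0.021). The other monocytic markers had no call. S100A8 had 28 and 10 counts against 57 and 8. FCGR3A (42 and 10 against 8 and 3) and CSF1R (3 and 3 against 18 and 4) did not pass the filter. The part of cells with CD14 or LYZ in the PAK6 values was not tested. Megakaryocyte and platelet markers differed more and are given with PAK6 at the end.

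PAK6 (NCBI gene 56924) lies on the plus strand of chromosome 15 at 40509629 to 40569688 on GRCh37. It had 201 and 253 counts in empty vector replicates 1 and 2, and the RUNX1::ERG replicates had 9203 and 5746. On the scale of normalized CPM, which is CPM of the library size after TMM scaling, these were 3.34 and 3.59 against 109 and 79.9. The groups were far apart, and the RUNX1::ERG library with more ERG (2.52 times) also had more PAK6, by 1.37 times. A relation between the amounts of ERG and PAK6 was not tested. The group means were 3.46 ± 0.177 and 94.5 ± 20.7 normalized CPM (SD, n = 2), a ratio of 27.3. The fitted log2 fold change of RUNX1::ERG over the empty vector was 4.77 with a standard error of 0.22. PAK6 ranked 71 by log2 fold change among the 15394 genes that passed the filter. Among the 9138 of these with a mean of at least 10 normalized CPM it ranked 2, after ERG itself.

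RefSeq places transcripts of PAK6 at 2 start sites in its promoter table, and both windows are shown because the Runt and Ets domains kept in the fusion recognize the short core motifs TGTGG and GGAA. Each window holds 250 bases before and 50 after a start site, is written 5′ to 3′ along the gene, and was placed on GRCh37 by an exact match of the RefSeq GRCh38.p14 sequence. Capitals mark GGAA and TGTGG on either strand, so TTCC and CCACA are also in capitals. The windows of CCDC9B, the neighbour with the largest rise, and BUB1B, the neighbour that overlaps PAK6, are shown beside them.
PAK6, first start site (plus strand), chr15:40531814-40532113: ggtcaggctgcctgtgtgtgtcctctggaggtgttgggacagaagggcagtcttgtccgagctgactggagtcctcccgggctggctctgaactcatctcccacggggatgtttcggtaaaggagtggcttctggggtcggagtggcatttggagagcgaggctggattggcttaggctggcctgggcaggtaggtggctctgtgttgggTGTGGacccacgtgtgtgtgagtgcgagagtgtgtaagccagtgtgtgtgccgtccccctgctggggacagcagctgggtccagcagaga
PAK6, second start site (plus strand), chr15:40545129-40545428: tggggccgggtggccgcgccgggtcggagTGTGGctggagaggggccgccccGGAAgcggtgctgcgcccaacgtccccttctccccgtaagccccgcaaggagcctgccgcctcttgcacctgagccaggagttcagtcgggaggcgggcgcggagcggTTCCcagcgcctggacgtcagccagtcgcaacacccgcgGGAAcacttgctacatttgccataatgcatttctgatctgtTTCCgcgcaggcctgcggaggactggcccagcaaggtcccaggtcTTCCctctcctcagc
CCDC9B (minus strand), chr15:40633091-40633390: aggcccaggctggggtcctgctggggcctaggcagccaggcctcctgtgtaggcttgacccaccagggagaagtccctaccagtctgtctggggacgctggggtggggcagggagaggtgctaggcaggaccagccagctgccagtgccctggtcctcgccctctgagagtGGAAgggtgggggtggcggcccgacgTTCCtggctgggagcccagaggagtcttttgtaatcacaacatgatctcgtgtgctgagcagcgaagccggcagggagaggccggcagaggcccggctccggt
BUB1B (plus strand), chr15:40453020-40453319: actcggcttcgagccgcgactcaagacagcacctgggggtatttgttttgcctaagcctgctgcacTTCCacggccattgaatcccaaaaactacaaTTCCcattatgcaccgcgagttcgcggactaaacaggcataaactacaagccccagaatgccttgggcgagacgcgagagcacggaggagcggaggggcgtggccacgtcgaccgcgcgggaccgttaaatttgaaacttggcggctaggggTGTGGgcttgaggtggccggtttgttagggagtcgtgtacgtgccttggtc
The first PAK6 window held 0 matches to GGAA and 1 to TGTGG, and its start site lies 22.4 kb into the gene as GENCODE draws it. The second PAK6 window, at 35.8 kb, held 5 matches to GGAA and 1 to TGTGG, and 1 of the 5 was part of the longer CCGGAA. The longer TGTGGT was in neither window. These letters are common. Among all 35116 RefSeq promoter windows of this length, 95.5% held GGAA, 28.6% held it at least 5 times, 17.2% held CCGGAA, 51.4% held TGTGG, 13.1% held TGTGGT and 49.3% held both GGAA and TGTGG. CCDC9B and BUB1B each had 2 matches to GGAA, a number reached by 83.8% of windows, and TGTGG was found 0 times and 1 time, respectively. The windows of BMF and INAFM2, neighbours that also rose, were searched and are not shown. Both BMF windows held 5 matches to GGAA, like the second PAK6 window, and TGTGG was found 1 time and 0 times. The INAFM2 window held 1 match, which was part of the longer CCGGAA, while TGTGG was found 0 times. PLCB2 had no window to search. The matches in the second PAK6 window were thus not particular to PAK6. A match is a description of the letters and not a binding site. The counts are per gene, so the start site in use was not measured.

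**Figure D1:**
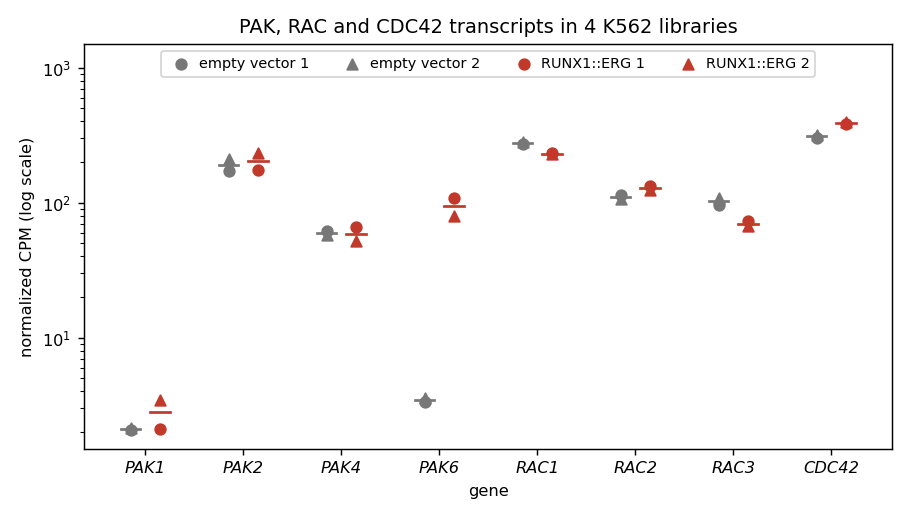
Normalized CPM (vertical axis, log scale) of the 8 detected PAK, RAC and CDC42 genes (horizontal axis) in each of the 4 libraries, with circles for replicate 1, triangles for replicate 2 and bars for the group means. PAK6 lies near 3.46 with the empty vector (grey) and near 94.5 with RUNX1::ERG (red), while PAK2, the most abundant kinase, has means of 191 and 204.

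The 9 other genes had no call. PAK3 and PAK5, kinases known mainly from the nervous system, had 0 counts in all 4 libraries and were not tested. None of the 7 that passed the filter was called by edgeR's quasi-likelihood test at a Benjamini-Hochberg adjusted p of 0.05, against 4.79% of all genes tested (3.64% higher and 1.15% lower with RUNX1::ERG). At an unadjusted p under 0.05 there were 2, RAC3 and CDC42. DESeq2 called 1 gene, RAC3, and limma voom called 0. In 2 of the 7 both RUNX1::ERG libraries lay above both empty vector libraries and in 2 they lay below, near the 25.1% and 22.1% found over all genes tested.

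Among the group I kinases, PAK2 was the abundant one. PAK2, which is expressed in most tissues, had 171 and 211 normalized CPM with the empty vector and 175 and 234 with RUNX1::ERG. The groups overlapped, with a log2 fold change of 0.09 (standard error 0.18, edgeR adjusted p = 0.86). PAK1, the founding member of the family, was low, with 124 and 152 counts against 177 and 250, or 2.06 and 2.16 against 2.10 and 3.48 normalized CPM. Only RUNX1::ERG replicate 2 stood above the rest, and the log2 fold change was 0.40 (standard error 0.35, edgeR adjusted p = 0.62). Of the group II kinases, PAK4, which is broadly expressed, had 62.0 and 57.7 normalized CPM with the empty vector and 65.8 and 52.1 with RUNX1::ERG. Its RUNX1::ERG libraries lay on either side of the controls, and the log2 fold change was -0.02 (standard error 0.17, edgeR adjusted p = 0.97). The sign of such small values was not fixed. Leaving out RUNX1::ERG replicate 2 gave -0.15 for PAK2, -0.02 for PAK1 and 0.12 for PAK4.

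The make-up of the family was compared per kilobase of exons, the scale that allows different genes to be set side by side. PAK6 made up 1.35% and 1.25% of the summed PAK signal in empty vector replicates 1 and 2 and 30.3% and 20.9% in RUNX1::ERG replicates 1 and 2. PAK2 went from 74.1% and 78.9% to 51.8% and 65.3%, and PAK4 from 23.7% and 19.0% to 17.2% and 12.8%. PAK6 thus stood below PAK4 in both controls and above it in both RUNX1::ERG libraries, although with canonical transcript lengths it was at 24.1% beside 24.3% for PAK4 in RUNX1::ERG replicate 2. The summed PAK level per kilobase was 36.9 and 42.7 normalized CPM with the empty vector and 53.8 and 57.1 with RUNX1::ERG. Without PAK6 the sums were 36.4 and 42.2 against 37.5 and 45.2, and the groups overlapped. PAK2 and PAK4 thus took lower shares at levels whose groups overlapped. Within group II alone, the summed level was 9.22 and 8.66 against 25.6 and 19.3, and within group I it was 27.7 and 34.1 against 28.2 and 37.9.

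**Figure D2:**
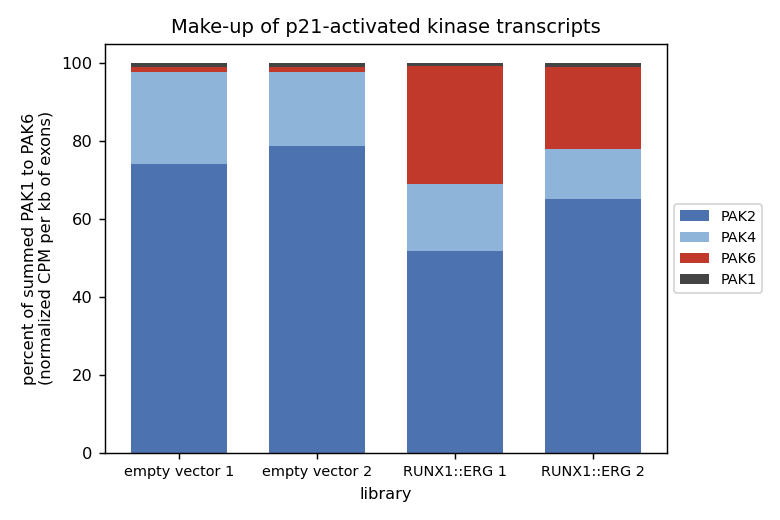
Stacked bars of the percent of summed PAK1 to PAK6 signal (normalized CPM per kilobase of exons, vertical axis from 0) taken by each kinase in each library (horizontal axis). The PAK6 segment (red) is 1.35% and 1.25% with the empty vector and 30.3% and 20.9% with RUNX1::ERG, and PAK3 and PAK5 are at 0 counts and have no segment.

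The small GTPases were abundant in both groups. CDC42, which drives filopodia and cell polarity, had 301 and 320.0 normalized CPM with the empty vector and 385 and 397 with RUNX1::ERG. The groups did not overlap, and the log2 fold change of 0.33 (standard error 0.14) did not pass the test (edgeR unadjusted p = 0.041, adjusted p = 0.25). RAC3, the RAC paralog best known from neurons, had 95.9 and 109 against 73.0 and 66.6 normalized CPM. Both RUNX1::ERG libraries were below both controls, with a log2 fold change of -0.55 (standard error 0.16, edgeR unadjusted p = 0.0055, adjusted p = 0.080). The adjusted p of RAC3 was 0.034 with DESeq2, 0.031 without the filter on low counts and 0.026 with the replicate number as a block, so its call depended on the method. RAC1, the ubiquitous member that drives lamellipodia, had 270.0 and 283 normalized CPM with the empty vector against 232 and 230.1. RAC2, the hematopoietic member, had 113 and 106 against 134 and 124. Both pairs of groups were separate but close, with log2 fold changes of -0.26 (standard error 0.14, edgeR adjusted p = 0.40) for RAC1 and 0.24 (standard error 0.15, edgeR adjusted p = 0.48) for RAC2.

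Set side by side per kilobase of exons, the levels with the empty vector were highest for RAC3 (69.5 ± 6.20 normalized CPM per kilobase, SD, n = 2), followed by RAC2 (41.8 ± 1.97), RAC1 (33.4 ± 1.14), PAK2 (30.5 ± 4.52), CDC42 (12.7 ± 0.535), PAK4 (8.42 ± 0.426), PAK6 (0.517 ± 0.0264) and PAK1 (0.350 ± 0.0113). RAC1 and PAK2 did not differ beyond their spread. With RUNX1::ERG, RAC2 (49.3 ± 2.73) and RAC3 (47.4 ± 3.05) came first and overlapped, PAK2 (32.6 ± 6.66) and RAC1 (27.9 ± 0.152) followed, and PAK6 (14.1 ± 3.09) stood next to CDC42 (16.0 ± 0.337) and above PAK4 (8.30 ± 1.37) and PAK1 (0.463 ± 0.162). PAK2 and RAC1, and likewise CDC42 and PAK6, did not differ beyond their spread. PAK6 at 16.3 and 11.9 had reached the per-kilobase level of CDC42 at 15.8 and 16.3. These orders depend on the gene model. With the length of the canonical transcript in place of all exons, RAC1 led in both groups (119.8 ± 4.08 with the empty vector), and PAK6 rose from 0.791 ± 0.0404 to 21.6 ± 4.72, beside PAK4 at 20.8 ± 3.45 and below CDC42 at 37.2 ± 0.784.

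Several neighbours of PAK6 were higher with RUNX1::ERG as well. Of the 6 nearest listed genes on each side, 12 in all, 9 passed the filter, and 4 of the 9 rose and 0 fell by edgeR's quasi-likelihood test, against 3.64% of all genes tested called higher and 1.15% lower. Their median log2 fold change was 0.85, beside -0.0017 over all genes tested. Both RUNX1::ERG libraries lay above both controls in 6 of the 9, against 25.1% of all genes tested. PLCB2, a phospholipase C that acts downstream of G protein-coupled receptors in hematopoietic cells, had 310 and 309 counts with the empty vector and 2044 and 1024 with RUNX1::ERG (log2 fold change 2.01, standard error 0.28, adjusted p = 0.0025). CCDC9B, a coiled-coil protein gene, had 51 and 30 against 911 and 368 counts (3.65, standard error 0.46, adjusted p = 0.0013). BMF, a pro-apoptotic member of the BCL2 family, had 233 and 131 against 994 and 515 counts (1.73, standard error 0.37, adjusted p = 0.027). In all 3 the libraries separated fully, and RUNX1::ERG replicate 1 was higher than replicate 2, by 1.70 times for PLCB2, 2.11 times for CCDC9B and 1.65 times for BMF in normalized CPM. Replicate 1 was also the higher one with the empty vector, where no fusion was present. There replicate 2 had 0.85 times the level of replicate 1 for PLCB2, 0.50 times for CCDC9B and 0.48 times for BMF. INAFM2 rose less, from 17.0 and 24.2 to 36.7 and 37.6 normalized CPM (0.85, standard error 0.21, adjusted p = 0.044). ANKRD63 had 36 and 52 against 153 and 102 counts (1.27, standard error 0.41, adjusted p = 0.11) and did not pass. Without RUNX1::ERG replicate 1, BMF (adjusted p = 0.17) and INAFM2 (adjusted p = 0.13) lost their calls and 2 of the 9 were called. INAFM2 was also not called without RUNX1::ERG replicate 2 (adjusted p = 0.061) or empty vector replicate 1 (0.12). Over the fits that left out 1 library, the log2 fold change ranged from 1.58 to 2.33 for PLCB2, 3.01 to 4.22 for CCDC9B and 1.29 to 2.35 for BMF.

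The other neighbours had no call. BUB1B, a mitotic checkpoint kinase whose end reaches into the span of PAK6, had 98.3 and 132 normalized CPM with the empty vector and 109 and 128 with RUNX1::ERG. The groups overlapped, with a log2 fold change of 0.04 (standard error 0.18, edgeR adjusted p = 0.95). EIF2AK4, SRP14 and SRP14-DT had log2 fold changes of -0.01, 0.10 and -0.22. Of the genes that did not pass the filter, PAK6-AS1, antisense to PAK6 at 40542865 to 40545170, had 2, 0, 11 and 4 counts in the order of empty vector replicates 1 and 2 and RUNX1::ERG replicates 1 and 2. GPR176-DT had 14, 6, 2 and 7 counts, and PHGR1 had 0 in all. PLCB2 and ANKRD63 overlap each other, and BUB1B and PAK6-AS1 overlap PAK6. The strand setting of the counting is not given in the sources used here, so reads in these overlaps cannot be assigned with certainty.

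Over 1 Mb to either side of the start of PAK6, 33 of 39 other genes passed the filter, 6 rose and 0 fell, against 3.64% and 1.15% of all genes tested, and the median log2 fold change was 0.10. The 2 calls besides the near neighbours, named after their values were seen, were THBS1, the gene of the platelet adhesion protein thrombospondin, at -636 kb (log2 fold change 3.65, standard error 0.29) and SPINT1, a serine protease inhibitor gene, at 627 kb (218 and 148 counts against 734 and 531). The rises near PAK6 fell between BMF at -108.5 kb and CCDC9B at 123.5 kb, with BUB1B at -56.4 kb between them. CHAC1, with a log2 fold change of -3.33 and an edgeR adjusted p of 0.0505, had 2868 counts in empty vector replicate 1 against 239 in replicate 2.

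**Figure D3:**
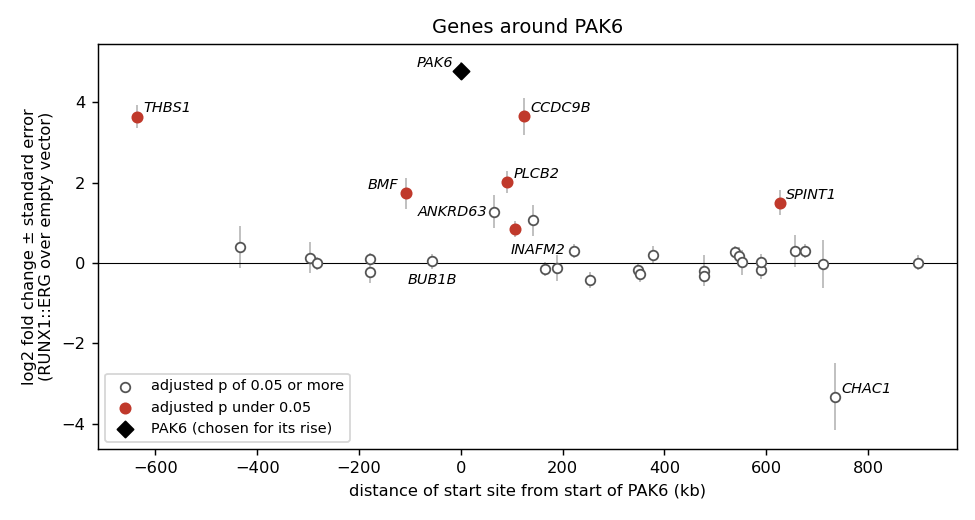
Log2 fold change of RUNX1::ERG over the empty vector (vertical axis, bars are standard errors) for tested genes within 1 Mb of PAK6, by distance of their start site from that of PAK6 in kb (horizontal axis). Filled circles are genes with an adjusted p under 0.05, and BMF (1.73), PLCB2 (2.01), INAFM2 (0.85) and CCDC9B (3.65) lie near PAK6 (4.77, diamond) while BUB1B (0.04) between them is at the zero line.

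The genes that control or carry out PAK signalling were read from 6 lists by role, 163 genes in all, of which 146 passed the filter. In these lists 13 genes rose and 3 fell, together 10.96% against 4.79% of all genes tested, and the median log2 fold change was 0.17 beside -0.0017. RHOU, RND3 and FGD5, 3 of the 13, passed the filter only through the RUNX1::ERG libraries, so the share is a description. Among all genes called, 560 were higher and 177 lower, and without empty vector replicate 2 these were 734 and 602. Without RUNX1::ERG replicate 1 only 5 of these genes were called, and without replicate 2 there were 10. Unless another fit is named, adjusted p-values are from edgeR's quasi-likelihood test over all 15394 genes.

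Upstream of the kinases, of the 12 tested among 14 related small GTPases 3 rose and 0 fell (median 0.27). This is 25.0% called, against 4.79% of all genes tested. RHOC, a regulator of contractility and motility, was by far the most abundant of the 3, with 224 and 238 normalized CPM against 458 and 402 (log2 fold change 0.90, standard error 0.15, adjusted p = 0.0074). RND3 and RHOU, named after their values were seen, were called at very low levels. RND3 had 2 and 4 counts against 28 and 38, and RHOU, an atypical GTPase that binds PAKs, had 0 and 0 against 20 and 16. These 2 of the 3 rises passed the filter only through the RUNX1::ERG libraries and do not support a change of the list. RHOA, the classical stress fibre GTPase, also named after its values were seen, was not called (0.09, standard error 0.15, adjusted p = 0.84). Leaving out RUNX1::ERG replicate 1 ended the call of RHOC (adjusted p = 0.060). RND3 was not called without empty vector replicate 1 or either RUNX1::ERG replicate (adjusted p from 0.071 to 0.26), nor with DESeq2 (0.062) or limma voom (0.052), nor RHOU without empty vector replicate 2 or either RUNX1::ERG replicate (0.050 to 0.15).

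Guanine nucleotide exchange factors (GEFs) load RAC and CDC42 with GTP, and GTPase-activating proteins (GAPs) and GDP dissociation inhibitors (GDIs) switch them off or sequester them. Of 29 GEFs tested among 38, 1 rose and 1 fell (median 0.18), 6.90% called and near the 4.79% of all genes tested. DOCK11, a GEF for CDC42, fell from 125 and 117 to 60.7 and 80.6 normalized CPM (log2 fold change -0.78, standard error 0.18, adjusted p = 0.033). The GEF that rose, FGD5, named after its values were seen, had 2 and 4 counts against 78 and 40 and passed the filter only through the latter. Of 24 GAPs and GDIs tested among 27, 2 rose and 0 fell (median 0.27), 8.33% called and near the 4.79% of all genes tested. ARHGDIB, the hematopoietic GDI, rose from 17.9 and 22.3 to 48.3 and 51.2 normalized CPM (1.31, standard error 0.19, adjusted p = 0.0029). Both groups were separate in each of these genes. Without RUNX1::ERG replicate 1 the adjusted p was 0.23 for DOCK11 and 0.12 for FGD5.

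Among partners and inhibitors of the kinases, 16 of 18 passed the filter, 2 rose and 0 fell (median 0.07). This is 12.5% called, against 4.79% of all genes tested. ARHGEF6, the exchange factor alpha-PIX that binds group I PAKs directly, rose from 14.4 and 18.0 to 29.4 and 38.2 normalized CPM (log2 fold change 1.06, standard error 0.21, adjusted p = 0.017). Its paralog ARHGEF7, named after its values were seen, had means of 42.2 and 40.8 and was not called (-0.05, standard error 0.17, adjusted p = 0.93). INKA2, an inhibitor of PAK4, rose from 56 and 92 to 276 and 212 counts (1.47, standard error 0.35, adjusted p = 0.039). The calls were narrow. That of ARHGEF6 was lost without RUNX1::ERG replicate 2 (adjusted p = 0.058), and that of INKA2 without replicate 1 (0.23) or replicate 2 (0.070).

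The list of substrates and of the cofilin axis had 20 genes, all tested, of which 3 rose and 1 fell (median 0.20). This is 20.0% called, against 4.79% of all genes tested. SSH1 and SSH2 are slingshot phosphatases that reactivate cofilin, against the action of LIM kinases. SSH1 rose from 17.0 and 17.8 to 39.5 and 45.4 normalized CPM (log2 fold change 1.29, standard error 0.18, adjusted p = 0.0028), and SSH2 from 9.78 and 10.7 to 18.3 and 20.1 (0.91, standard error 0.20, adjusted p = 0.030). The kinase side of this axis, named after its values were seen, had no call: LIMK1 had a log2 fold change of 0.22 (adjusted p = 0.59), LIMK2 of 0.59 (adjusted p = 0.097) and CFL1, cofilin itself, of -0.02 (adjusted p = 0.97). BAD, a pro-apoptotic protein that PAKs inactivate by phosphorylation, rose from 598 and 594 to 1856 and 1312 counts (1.13, standard error 0.21, adjusted p = 0.013). VIM, the intermediate filament protein vimentin, was the gene that fell, from 706 and 827 to 312 and 365 normalized CPM (-1.18, standard error 0.15, adjusted p = 0.0017). The calls of SSH1 and VIM held in every fit run, whereas without RUNX1::ERG replicate 1 those of BAD (adjusted p = 0.11) and SSH2 (0.10) were lost, the latter also without replicate 2 (0.11).

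Of 45 other effectors of RAC and CDC42 tested among 46, 2 rose and 1 fell (median 0.11), 6.67% called and near the 4.79% of all genes tested. WAS, the hematopoietic Wiskott-Aldrich protein that links CDC42 to actin nucleation, rose from 3.42 and 3.28 to 10.7 and 6.30 normalized CPM (log2 fold change 1.34, standard error 0.30, adjusted p = 0.031), and its adjusted p was 0.051 with limma voom and 0.35 without RUNX1::ERG replicate 1. WASL, its ubiquitous paralog, named after its values were seen, was not called (0.01, standard error 0.18, adjusted p = 0.99). FNBP1L, a membrane-curving partner of CDC42 and WASL, rose from 14.6 and 18.1 to 29.3 and 31.6 (0.89, standard error 0.19, adjusted p = 0.027). CDC42EP1, a septin-organizing effector, fell from 107 and 76.5 to 56.6 and 45.1 (-0.85, standard error 0.20, adjusted p = 0.038). FNBP1L was not called without RUNX1::ERG replicate 1 (adjusted p = 0.085) or replicate 2 (0.067), nor CDC42EP1 without RUNX1::ERG replicate 2 (0.077), without empty vector replicate 1 (0.093) or with library totals as the only scaling (0.065).

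**Figure D4:**
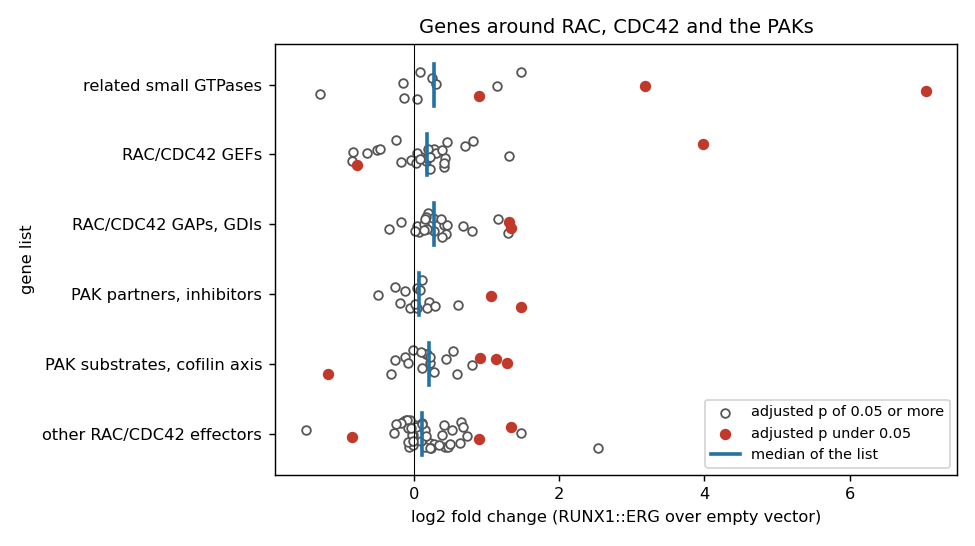
Log2 fold change of RUNX1::ERG over the empty vector (horizontal axis) of each tested gene in 6 lists around RAC, CDC42 and the PAKs (vertical axis, points spread at random within a list), with filled points for an adjusted p under 0.05 and bars for list medians. The medians lie between 0.07 and 0.27, and the points farthest right, RHOU, FGD5 and RND3, are genes with at most 4 counts in either empty vector library.

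The genes whose pattern over the 4 libraries lay nearest to that of PAK6 were sought among 12365 genes with a mean of at least 1 normalized CPM, by Euclidean distance between values of log2(normalized CPM + 0.5) centred on the mean of each gene. They were ITGB3 (distance 0.346), PF4 (0.368), F2RL2 (0.411), ITGA2B (0.547) and PPBP (0.717). Like PAK6 they were chosen by this contrast and are described without a test. ITGB3 and ITGA2B encode the subunits of the platelet fibrinogen receptor, PF4 and PPBP are platelet chemokines, and F2RL2 is a thrombin receptor subunit. ITGB3 had 3.45 and 4.38 normalized CPM with the empty vector and 98.4 and 96.7 with RUNX1::ERG, close to PAK6 in level as well as pattern. ITGA2B had 12.0 and 8.92 against 229 and 161, and F2RL2 had 0.531 and 0.369 against 19.3 and 17.5. PF4 had 0 and 2 counts against 874 and 555, and PPBP had 2 and 6 against 1553 and 1462. In ITGA2B and PF4 RUNX1::ERG replicate 1 was higher than replicate 2, by 1.43 and 1.34 times, near the 1.37 times of PAK6. The same ratio was 1.02 for ITGB3, the nearest gene, 1.10 for F2RL2 and 0.91 for PPBP.

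Of 20 megakaryocyte and platelet markers, 13 passed the filter and 9 of these were called higher, against 3.64% of all genes tested. The 9 include ITGA2B, ITGB3, PF4 and PPBP, which were picked for their pattern, and PF4, PPBP, VWF and MMRN1 passed the filter only through the RUNX1::ERG libraries, so the count is a description. The list summed to 450.1 and 481 normalized CPM with the empty vector against 924 and 843 with RUNX1::ERG. This sum is likewise a description, since it holds the picked genes ITGA2B (means of 10.4 and 195) and ITGB3 (3.92 and 97.5). Of the 13 tested, 12 had a log2 fold change above 0. The exception, NFE2, was the largest part with the empty vector (305 and 322 normalized CPM against 299 and 287). Among the markers that did not pass the filter, GP9, GP5, SELP, TREML1 and CLEC1B had at most 18 counts in any library and GP1BB was at 0 in all. NFE2, GP6 and GP1BA passed the filter and were not called. ITGA2B and ITGB3 define this lineage, and their likeness to PAK6 follows from the way they were picked. GP9 and GP1BB, 2 other defining genes, stayed at or near 0. The part of these cells or of this program in the PAK6 values was not tested.

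**Figure D5:**
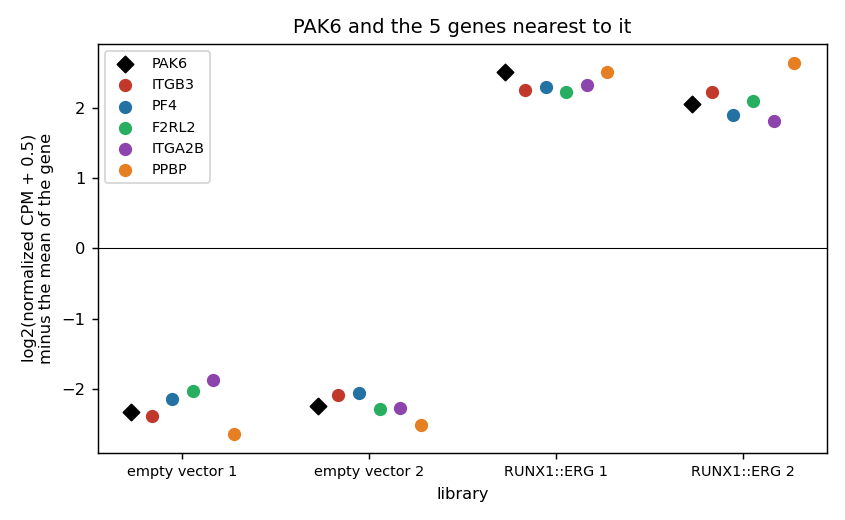
Centred log2(normalized CPM + 0.5) (vertical axis) of PAK6 (diamonds) and of the 5 genes nearest to it by Euclidean distance (circles) in each of the 4 libraries (horizontal axis). All 6 genes lie below their own mean with the empty vector and above it with RUNX1::ERG, as the choice of genes requires.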

How the data were processed

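WTS was measured in 4 K562 libraries, 2 with RUNX1::ERG and 2 with the empty vector. Values are raw counts that the authors deposited, 1 file per library, with genes under their NCBI numbers. The submitters' processing notes name hg19, HISAT2 2.2.1 and featureCounts 2.0.1, and the annotation and strand setting are not given in the sources used here. Depth was 59695387 to 82352144 counts per library, with the precision limits given above.

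A RefSeq table of GRCh38.p14 gave symbols for 92.2% of the 25702 genes, and gene order. Positions and exon lengths were those of GENCODE v44 on GRCh37 (lengths for 87.4%). RefSeq promoter windows were searched for motifs chosen with these results known.

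Counts were compared in R 4.3.3 by the quasi-likelihood test of edgeR 4.0.16 after TMM scaling. Its filter on low counts kept 15394 genes, over which p-values were adjusted (Benjamini-Hochberg, threshold 0.05). Standard errors were the absolute log2 fold change over the root of F. The procedure was tested on simulated data. Replicates of a group differed by far more than sampling noise, with a chi-square per degree of freedom of 89.7 and 68.3.

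The members, lists and tests were chosen with earlier results of these data known. Named genes were all 10 members, ERG and RUNX1, the 6 nearest listed genes on each side of PAK6, up to 3 rises and 3 falls per pathway list with a mean of at least 1 normalized CPM, and the 5 genes nearest to PAK6 in pattern. Some list genes enter the counts and are not reported by name here. The comparison was repeated with DESeq2 1.42.0, limma 3.58.1 voom, other scalings, no filter, halved counts, a replicate block and leaving out each library. The count of called neighbours, canonical transcript lengths and the window of 1 Mb were added after the data were seen.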

Additional observations from a re-analysis of the deposited data

How the results depend on the processing

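Of the 9 genes beside PAK6, 0 were called in the comparison as reported and 1, RAC3, without the filter on low counts, with DESeq2 and with the replicate block, with log2 fold changes of -0.56, -0.57 and -0.55; no other member changed its call. Called pathway genes went from 16 to 27 without the filter and to 30 with the replicate block, and all called genes from 737 to 1500, 1733 and, with DESeq2, 1194. The share of called genes that were higher went from 76.0% to 64.1%, 62.4% and 66.7%, and was 83.3% with library totals alone and 54.9% without empty vector replicate 2. The replicate numbers shared only a number in the labels, and deviations of same-numbered libraries correlated with r = 0.349 over genes. Leaving out 1 library at a time gave 5 to 21 pathway genes, 2 to 4 neighbours and 286 to 1336 genes in all, in each case fewest without RUNX1::ERG replicate 1; these fits leave an arm with 1 library, which is assumed to vary like the other group. The cause was not tested. Values near 0 changed sign. With library totals alone PAK4 was at 0.020 and EIF2AK4 at 0.032, and over the fits leaving out 1 library PAK1 ranged from -0.020 to 0.72, PAK2 from -0.15 to 0.29, PAK4 from -0.20 to 0.12, EIF2AK4 from -0.15 to 0.11, SRP14-DT from -0.46 to 0.059 and BUB1B from -0.17 to 0.27. The log2 fold change of PAK6 ranged from 4.53 to 4.96, and its share of PAK signal from 20.9% to 30.3% with RUNX1::ERG and from 1.25% to 1.35% with the empty vector. With the canonical transcript length the shares were 28.2% and 1.47%. Of the values of named genes over all libraries, 269 had the same direction and call, 4 gained and 4 lost a call and 2 changed sign. With 1 library left out, 118 were the same, 26 lost a call and 10 changed sign, and 6 values of untested genes (PF4, F2RL2 and PPBP) moved by more than the spread between replicates. With 2 libraries per group, moderate changes such as those of the GTPases can be missed.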
